A study of Mus musculus with 3 samples.

Results

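The genes described here are 9 synaptic adhesion genes, the neurexins *Nrxn2* and *Nrxn3*, the neuroligins *Nlgn1*, *Nlgn2* and *Nlgn3*, the leucine-rich repeat genes *Lrrtm1* and *Lrrtm2*, and the *Cadm* (SynCAM) genes *Cadm1* and *Cadm2*. They were chosen by symbol, and all 9 were found among the 14933 genes of the table of filtered cells. Their molecules were summed in each library over 3 classes of cells. Typical neuronal cells are those the authors kept for their expression comparison, atypical neuronal cells are the neuronal cells they set aside, and outside cells passed the filters but are not in the neuronal table.

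Neurexins are presynaptic membrane proteins that reach across the synaptic cleft. Neuroligins and LRRTM proteins bind them from the postsynaptic side, and these contacts help to organise the machinery of both sides. SynCAM proteins, the products of the *Cadm* genes, carry immunoglobulin domains and bind one another across the cleft. Neuroligin-1 is known from excitatory synapses, neuroligin-2 from inhibitory synapses and neuroligin-3 from both, and several of these genes are also used by glia.

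Cells positive for tdTomato were sorted from the medial prefrontal cortex (mPFC) of C57Bl6 mice at postnatal day 5 (P5) and captured on the 10X Chromium Single Cell 3′ v2 platform. All 3 groups carry Rbp4-cre, a driver of Cre in layer 5 projection neurons, and the tdTomato reporter (Ai14), so the controls carry Cre as well. The *Tbr1* wild-type group has no floxed allele, the *Tbr1* layer5 heterozygous group is Tbr1 f/+ and the homozygous group is Tbr1 f/f. *Tbr1*, a T-box transcription factor of cortical projection neurons, loses exons 2 and 3 where Cre acts. Each genotype is 1 library, and how many animals went into it is not stated in the sources used here. No test between genotypes was therefore possible, and every interval below is a 95% interval of counting error only.

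Levels are given as counts of unique molecular identifiers (UMIs) of a gene per 1000000 UMIs of the same cells (CPM). The wild-type library holds 1778 typical neuronal cells with 3670646 UMIs, the heterozygous library 5357 with 10418228 UMIs and the homozygous library 3935 with 6074494 UMIs. The libraries differ in the shallowest typical cell, which has 1533, 1196 and 1040 UMIs in the order wild-type, heterozygous, homozygous, and all triplets of values below keep this order. Of 17255 barcode sequences, 140 occur in at least 2 libraries. The 9 excitatory neuron markers summed to between 2145 and 3232 CPM in typical cells and to between 1156 and 1888 CPM in empty droplets, the barcodes with at least 100 and under 500 UMIs. Most of this sum is *Nrgn*, which alone was at 1692, 2062 and 2722 CPM in typical cells. The markers summed to 780, 2650 and 1487 CPM in atypical cells and to 679, 1966 and 1320 CPM in outside cells. *Tbr1* itself (chromosome 2 of GRCm38, 61802930 to 61814114) was at 27.5, 30.7 and 22.4 CPM in typical cells from 101, 320 and 136 UMIs. Counting of 3′ ends cannot see the loss of exons 2 and 3, so this level does not check the deletion. In these pooled cells, fewer cells that use a gene and less RNA per cell cannot be told apart.

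In typical neuronal cells most of the 9 genes did not differ between libraries beyond counting error, and 4 did. *Nrxn3* was lower and *Lrrtm1* higher in both mutant libraries than in the wild-type library. *Nrxn2* was lower and *Cadm2* higher in the homozygous library, and the intervals of these ratios do not hold 0. The share of all genes with such intervals is not given here, so this count does not set the 9 genes apart from others. Both mutant libraries are set against the same wild-type library, so their ratios are not independent. That library also stands apart in other measures of typical cells. The nuclear RNA *Malat1* was at 1129.5, 348 and 594 CPM, the median mitochondrial share of UMIs was 10.4, 15.4 and 12.5%, and endothelial markers summed to 108, 31.7 and 53.0 CPM. Of the 11 marker lists, 9 had their highest sum in the wild-type library, and the part of these differences in the ratios was not tested. Over the 9 genes the median log2 ratio was 0.04 for homozygous over wild-type and 0.01 for heterozygous over wild-type. Over the 8520 genes that averaged 5 CPM or more, the level that all 9 genes pass, the medians were 0.05 and 0.04. A gene was counted as different where its log2 ratio was past 0.32 in either direction. In the homozygous comparison 3 of the 9 genes were past it, and 34.0% of the 8520 genes were. In the heterozygous comparison it was 4 of the 9, and 34.6% of all genes. Between the mutant libraries it was 1 of the 9, *Lrrtm2*, and 16.0% of all genes. A level of 20 CPM takes in *Nrxn2*, *Cadm1* and *Cadm2* only, of which 1 of 3 was past it in the homozygous comparison (25.7% of 4261 genes) and 0 of 3 in the heterozygous comparison (26.6%). The members' shares lie near those of all genes.

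**Figure D1:**
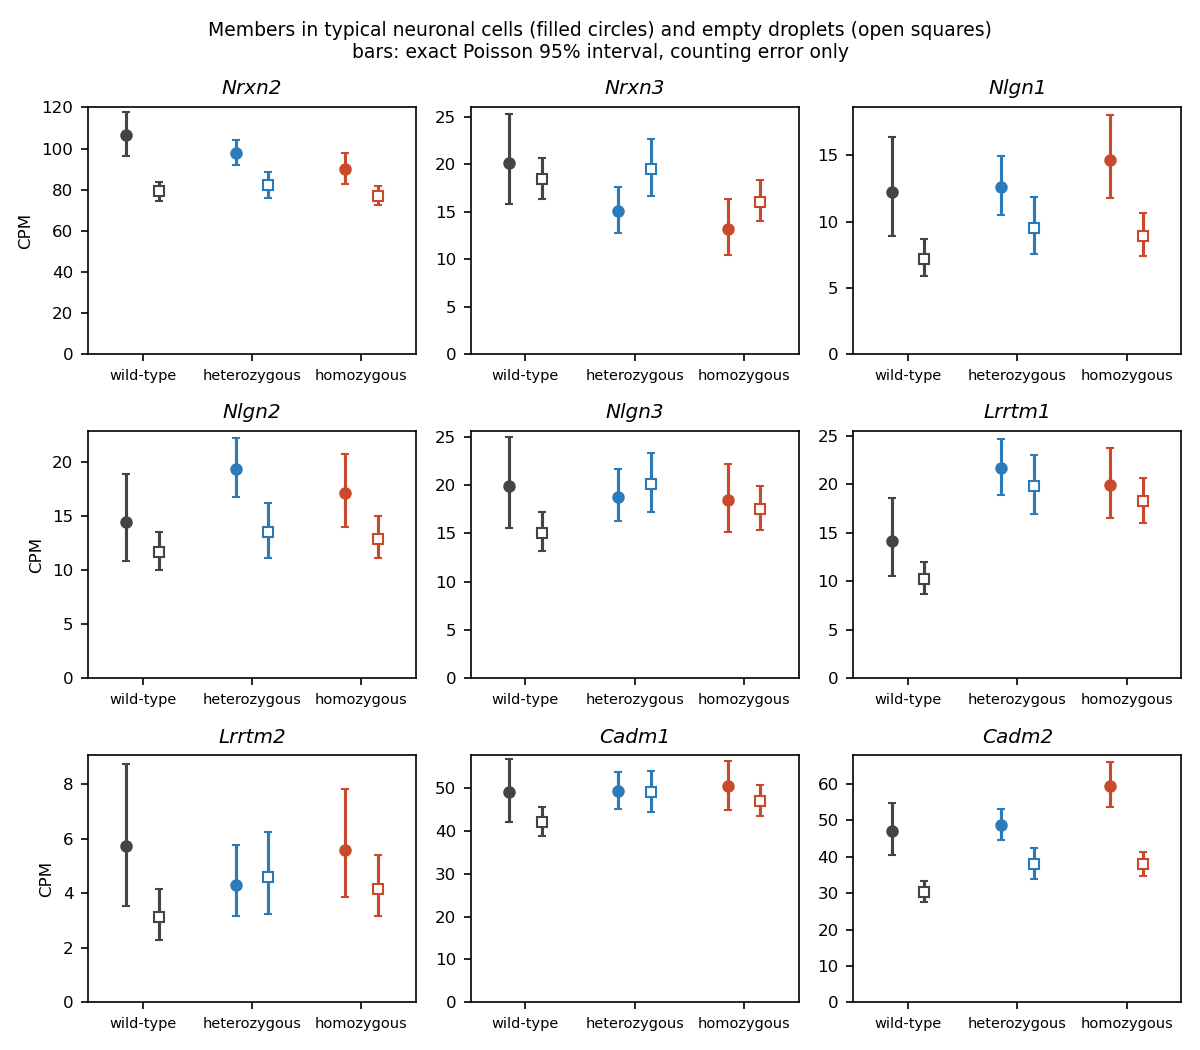
CPM of each gene (vertical axis, linear from 0) in the 3 libraries (horizontal axis), in typical neuronal cells (filled circles) and in empty droplets (open squares), with exact Poisson 95% intervals as bars. *Nrxn2* is at 107 CPM in wild-type and 90.0 CPM in homozygous typical cells, and the *Lrrtm1* squares shift between libraries as the circles do.

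*Nrxn2* (ENSMUSG00000033768, chromosome 19, 6418731 to 6544169, plus strand) had 392, 1021 and 547 UMIs in typical cells. These are 107, 98.0 and 90.0 CPM, with intervals from 96.5 to 118, from 92.1 to 104 and from 82.7 to 97.9. The wild-type library is highest and the homozygous library lowest, and the intervals overlap. The log2 ratio was −0.25 (−0.44 to −0.06) for homozygous over wild-type and −0.12 (−0.29 to 0.05) for heterozygous over wild-type, both short of 0.32. In empty droplets *Nrxn2* was at 79.2, 82.2 and 77.0 CPM, and there the homozygous ratio was −0.04 (−0.16 to 0.08). The exons of *Nrxn2* overlap those of *Slc22a12* on the other strand over 682 bases and those of *Gm14964* over 207. Exons on the other strand also overlap those of *Nlgn1* (*A830092H15Rik*, 1229 bases), *Nrxn3* (*Gm37980*, 439 bases) and *Cadm2* (*1700010K23Rik*, 256 bases). Cell Ranger counts reads on the strand of the gene by default, but the setting used is not stated in the sources used here.

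*Nrxn3* (ENSMUSG00000066392, chromosome 12, 88722876 to 90334935, plus strand) had 74, 157 and 80 UMIs, or 20.2, 15.1 and 13.2 CPM. The wild-type level is the highest, and its interval (15.8 to 25.3) overlaps the heterozygous one (12.8 to 17.6) and the homozygous one (10.4 to 16.4). The log2 ratio was −0.61 (−1.09 to −0.14) for homozygous over wild-type, and for heterozygous over wild-type it was −0.42 with an interval from −0.83 to just below 0. In empty droplets the same ratios were −0.20 (−0.46 to 0.06) and 0.08 (−0.21 to 0.36). Markers of the cells that hold more *Nrxn3* did not share 1 order in typical cells. The 10 inhibitory neuron markers summed to 600, 537 and 661 CPM there, the 7 striatal neuron markers of the table to 227, 170 and 208 CPM and the 6 cycling markers to 58.3, 34.1 and 56.1 CPM, and the last 2 lists are highest in the wild-type library, as *Nrxn3* is. No marker of these lists was at 0 in any library. Their part in the *Nrxn3* ratio was not tested.

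Neurexin genes use several start sites, for long and short forms, and 3′ counting does not tell these forms apart. The RefSeq starts used here give *Nrxn3* 3 start regions on the plus strand of GRCm38.p6. All lie inside the GENCODE span of the gene, which begins at 88722876, so the bases before that outermost start are not shown. Whether the listed starts are used in these cells was not tested. The 250 bases before each listed start are shown because a change of any form would enter the single *Nrxn3* count. CG dinucleotides are in capitals.
Nrxn3 first start, chr12:88794254-88794503: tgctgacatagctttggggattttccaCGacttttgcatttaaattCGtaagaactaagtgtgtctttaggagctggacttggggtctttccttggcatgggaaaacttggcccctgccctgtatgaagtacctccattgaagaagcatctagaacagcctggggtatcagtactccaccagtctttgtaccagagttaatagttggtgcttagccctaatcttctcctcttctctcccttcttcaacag
Nrxn3 second start, chr12:88953140-88953389: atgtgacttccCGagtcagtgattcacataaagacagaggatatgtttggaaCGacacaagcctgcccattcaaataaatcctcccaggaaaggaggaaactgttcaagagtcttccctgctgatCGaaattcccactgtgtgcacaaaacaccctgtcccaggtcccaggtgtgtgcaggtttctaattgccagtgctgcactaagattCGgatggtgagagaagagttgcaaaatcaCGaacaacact
Nrxn3 last start, chr12:89812233-89812482: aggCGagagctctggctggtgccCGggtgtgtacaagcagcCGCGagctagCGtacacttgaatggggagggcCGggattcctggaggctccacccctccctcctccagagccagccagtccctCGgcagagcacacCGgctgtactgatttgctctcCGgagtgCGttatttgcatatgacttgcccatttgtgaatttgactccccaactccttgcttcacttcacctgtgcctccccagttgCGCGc
They hold 2, 5 and 12 CG dinucleotides, against a median of 6 over the same 250 bases of the 32851 promoters of the RefSeq table, with quartiles of 2 and 16. The third window is the richest in G and C, at 60.0% of bases, and the first the poorest, at 45.6%.

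The 3 neuroligins did not differ between genotypes beyond counting error in typical cells. *Nlgn1* (ENSMUSG00000063887, chromosome 3, 25426215 to 26332460, minus strand) was at 12.3, 12.6 and 14.7 CPM from 45, 131 and 89 UMIs. The homozygous library is highest, and the 3 intervals overlap. Its log2 ratio was 0.26 (−0.28 to 0.81) for homozygous and 0.04 (−0.46 to 0.56) for heterozygous over wild-type. With intervals this wide, a difference was not detectable at this depth.

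*Nlgn2* (ENSMUSG00000051790, chromosome 11, 69823122 to 69837784, minus strand) was at 14.4, 19.4 and 17.1 CPM from 53, 202 and 104 UMIs. Both mutant libraries are above the wild-type library, and the intervals overlap. The log2 ratio of 0.43 for heterozygous over wild-type is past 0.32, with an interval from −0.02 to 0.89, and the homozygous ratio was 0.25 (−0.25 to 0.75).

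*Nlgn3* (ENSMUSG00000031302, chromosome X, 101299168 to 101325963, plus strand) was at 19.9, 18.8 and 18.4 CPM from 73, 196 and 112 UMIs. The levels lie close together, and the log2 ratios were −0.11 (−0.55 to 0.34) and −0.08 (−0.47 to 0.33) for homozygous and heterozygous over wild-type. The gene is X-linked, and the libraries differ in transcripts of the sex chromosomes. The 4 Y-linked genes of the table had 44, 0 and 158 UMIs in typical cells, and *Xist* was at 18.8, 8.06 and 5.93 CPM. These *Xist* levels are below those of empty droplets, at 38.0, 59.1 and 16.1 CPM. In outside cells the Y-linked genes had 463, 0 and 165 UMIs and *Xist* was at 1399, 828 and 752 CPM. The part of the difference in sex chromosome transcripts in the *Nlgn3* ratio was not tested. GENCODE also places a second transcribed unit on the same strand, *Gm21986*, which shares 3823 exon bases with *Nlgn3*, and reads from the shared part cannot be told apart.

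*Lrrtm1* showed the largest difference over wild-type in the heterozygous library. The gene (ENSMUSG00000060780, chromosome 6, 77242689 to 77257791, plus strand) had 52, 226 and 121 UMIs, or 14.2, 21.7 and 19.9 CPM. The wild-type interval (10.6 to 18.6) lies below the heterozygous one (19.0 to 24.7) and overlaps the homozygous one (16.5 to 23.8). The log2 ratio was 0.61 (0.17 to 1.08) for heterozygous and 0.49 (0.01 to 0.99) for homozygous over wild-type. The direction was the same in the other fractions of the libraries. In outside cells *Lrrtm1* was at 11.7, 22.9 and 22.2 CPM, with log2 ratios of 0.97 (0.55 to 1.38) and 0.92 (0.43 to 1.40) for heterozygous and homozygous over wild-type. In empty droplets it was at 10.3, 19.8 and 18.3 CPM, with ratios of 0.95 (0.63 to 1.27) and 0.83 (0.53 to 1.13). With the empty-droplet profile subtracted from typical cells, their *Lrrtm1* ratio was 0.52 for heterozygous and 0.40 for homozygous over wild-type.

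*Lrrtm1* lies inside *Ctnna2*, a catenin gene on the other strand, and shares no exon base with it. *Ctnna2* was at 48.2, 43.8 and 43.8 CPM in typical cells, a log2 ratio over wild-type of −0.14 for the heterozygous (−0.39 to 0.12) and −0.14 for the homozygous library (−0.42 to 0.14). *Lrrtm1* and *Cadm2* were the 2 genes that were higher in a mutant library with an interval above 0 and that the RefSeq table holds, so the 250 bases before their starts are shown, with CG dinucleotides in capitals.
Lrrtm1, plus strand, chr6:77242227-77242476: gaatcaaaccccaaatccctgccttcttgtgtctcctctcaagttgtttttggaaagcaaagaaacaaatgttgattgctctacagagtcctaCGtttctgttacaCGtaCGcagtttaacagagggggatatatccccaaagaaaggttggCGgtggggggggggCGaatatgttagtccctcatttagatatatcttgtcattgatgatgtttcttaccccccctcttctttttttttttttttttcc
Cadm2, minus strand, chr16:67620909-67621158: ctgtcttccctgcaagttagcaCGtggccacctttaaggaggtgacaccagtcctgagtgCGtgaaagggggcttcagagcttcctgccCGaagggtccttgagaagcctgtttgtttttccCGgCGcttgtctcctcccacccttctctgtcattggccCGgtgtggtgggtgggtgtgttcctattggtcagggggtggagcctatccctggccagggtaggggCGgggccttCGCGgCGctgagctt
The *Lrrtm1* window holds 5 CG dinucleotides in 42.0% G and C, and the *Cadm2* window 10 in 60.8%. The T-box motif AGGTGTGA, searched on both strands with its reverse TCACACCT, occurs in none of the 8 windows of 300 bases (250 before to 50 after a start) that the table holds for *Nrxn3*, *Nlgn1*, *Nlgn2*, *Lrrtm1* and *Cadm2*. It occurs in 1.28% of all 32851 windows. The shorter GGTGTGA, which is contained in it, occurs in none of the 8 and in 3.98% of all. This says only that these letters are not in these windows.

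*Lrrtm2* (ENSMUSG00000071862, chromosome 18, 35209003 to 35215024, minus strand), the other leucine-rich repeat gene, was counted least of the 9, with 21, 45 and 34 UMIs in typical cells, and is the one member that the neuronal table leaves out. It was at 5.72, 4.32 and 5.60 CPM, with intervals that overlap in all pairs. Its ratio of −0.41 for heterozygous over wild-type is past 0.32 but spans −1.18 to 0.42, so no difference was detectable at this depth, and it was 0.15 in cells thinned to 1000 UMIs. *Lrrtm2* lies inside *Ctnna1* on the other strand, with 95 exon bases in common.

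Of the *Cadm* genes in typical cells, *Cadm1* did not differ between the libraries beyond counting error and *Cadm2* was higher in the homozygous library. *Cadm1* (ENSMUSG00000032076, chromosome 9, 47530173 to 47857637, plus strand) was at 49.0, 49.3 and 50.4 CPM from 180, 514 and 306 UMIs. Its libraries differ by less than their intervals, and the log2 ratios were 0.04 (−0.23 to 0.31) and 0.01 (−0.24 to 0.26) for homozygous and heterozygous over wild-type. *Cadm2* (ENSMUSG00000064115, chromosome 16, 66655421 to 67620908, minus strand) was at 47.1, 48.8 and 59.6 CPM from 173, 508 and 362 UMIs. The homozygous library is highest, and its interval (53.6 to 66.1) lies above that of the heterozygous library (44.6 to 53.2). The log2 ratio of *Cadm2* was 0.34 (0.07 to 0.61) for homozygous over wild-type, 0.29 (0.09 to 0.49) for homozygous over heterozygous and 0.05 (−0.20 to 0.31) for heterozygous over wild-type. As mean raw UMIs per cell, a scale that moves all genes alike, the first of these was −0.081. On that scale the median of the genes that averaged 20 CPM or more was −0.34. In outside cells *Cadm2* was at 73.6, 94.9 and 92.8 CPM, higher in both mutant libraries, with ratios of 0.37 (0.18 to 0.55) for heterozygous and 0.33 (0.12 to 0.55) for homozygous over wild-type. In empty droplets *Cadm2* was at 30.4, 38.0 and 38.0 CPM, which gives 0.33 (0.14 to 0.51) for homozygous over wild-type and 0.32 (0.11 to 0.53) for heterozygous over wild-type. Between the mutant libraries the log2 ratio in empty droplets was 0.00 (−0.20 to 0.20), an interval that overlaps that of typical cells, and the difference between these fractions was not tested.

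**Figure D2:**
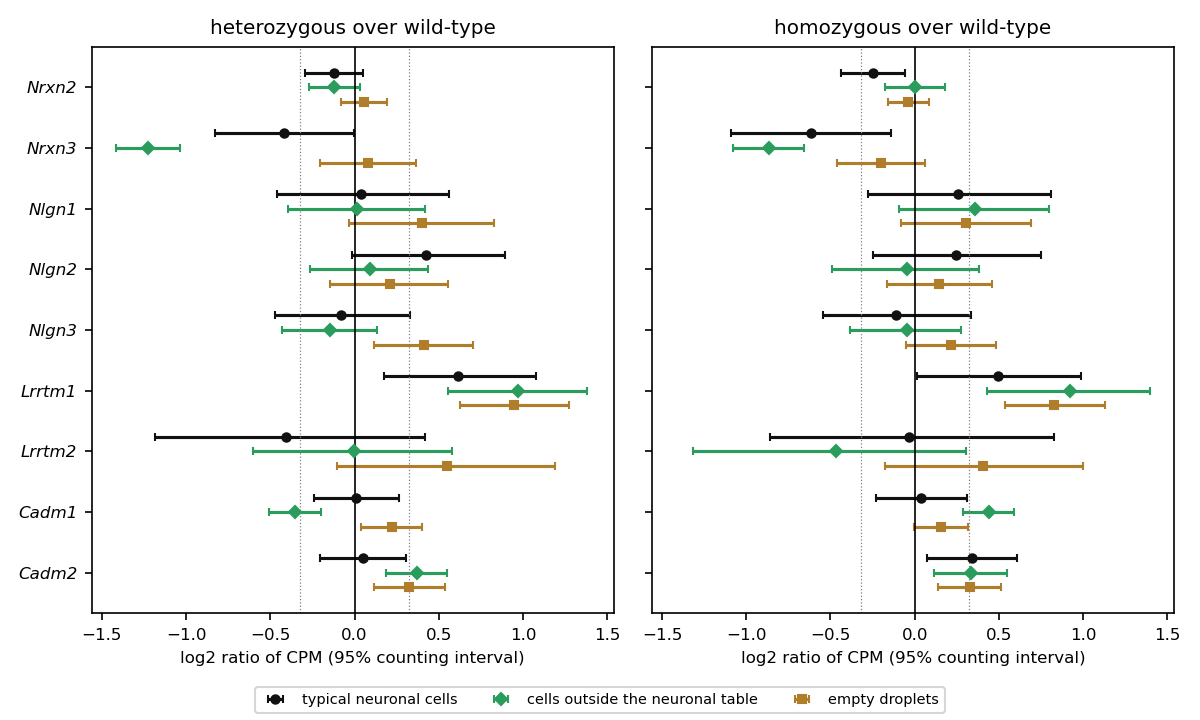
Log2 ratio of CPM over the wild-type library (horizontal axis) for each gene (vertical axis) in typical neuronal cells (black circles), outside cells (green diamonds) and empty droplets (brown squares), with 95% counting intervals and dotted lines at a log2 ratio of 0.32 in either direction. For *Lrrtm1* all 6 points lie right of 0, between 0.49 and 0.97, while for *Nrxn3* the typical and outside cells lie left of 0 and the empty droplets between −0.20 and 0.08.

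The levels in typical cells were set beside those of the empty droplets of the same library. *Nrxn2* and *Cadm2* were above them in each library, by log2 ratios of 0.23 to 0.43 and of 0.36 to 0.65, with intervals above 0. *Nlgn1* was above them by 0.77 (0.23 to 1.28) in the wild-type and 0.72 (0.31 to 1.12) in the homozygous library, and *Nlgn2* by 0.52 (0.18 to 0.87) in heterozygous cells and by 0.41 (0.042 to 0.76) in homozygous cells. *Lrrtm2* was above them in the wild-type library, by 0.87 (0.05 to 1.64). *Nlgn3* had intervals that hold 0 in each library. *Cadm1* and *Lrrtm1* were within the counting interval of the empty droplets in all 3 libraries, and *Nrxn3* was not above them in any library beyond counting error, at 0.13 (−0.26 to 0.50), −0.37 (−0.70 to −0.048) and −0.29 (−0.67 to 0.09). The non-neuronal marker list that was lowest in typical cells relative to empty droplets allows free RNA to make up at most 23.7, 13.4 and 18.2% of their UMIs. This was the mural list in the wild-type and homozygous libraries and the meningeal fibroblast list in the heterozygous library. Other lists lay higher. Astrocyte and radial glia markers summed to 8986, 7878 and 8836 CPM in typical cells and to 8685, 8306 and 8971 CPM in empty droplets. At the shares of 23.7, 13.4 and 18.2% the empty-droplet profile would supply between 9.36% (*Nlgn2*, heterozygous) and 22.1% (*Nrxn3*, homozygous) of a member's level.

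Typical neuronal cells were set beside outside cells to describe where in the sorted material the 9 genes took a larger share of UMIs. These classes also differ in the makeup of their RNA. *Malat1* was at 1129.5, 348 and 594 CPM in typical cells and at 33113, 14926 and 26359 CPM in outside cells. In empty droplets it was at 3186, 1931 and 1908 CPM. The part of this difference in the ratios was not tested. Most genes took a smaller share of UMIs in typical cells, with a median log2 ratio over all genes of −0.73, −0.35 and −0.54. Among the 9 genes, *Nrxn3* and *Cadm1* were past 2-fold lower in typical cells in each library, and none of the 9 was past 2-fold higher, as 3.42, 0.0622 and 1.27% of all genes were. With cells thinned to 1000 UMIs, *Lrrtm2* was past it in the homozygous library, at 1.26 against −0.19 unthinned. *Nrxn3* was at 147, 63.0 and 80.8 CPM in outside cells, which puts typical cells lower by log2 ratios of −2.87, −2.06 and −2.62. The intervals (−3.23 to −2.53, −2.36 to −1.77 and −3.01 to −2.24) lie below the median of all genes in each library. With the neuron-like clusters taken out of the outside cells, the *Nrxn3* ratios were −1.66, −0.43 and −0.95. The cells left still hold the cycling-like clusters described below, with 267, 17 and 21 *Nrxn3* UMIs at 226, 175 and 256 CPM. *Cadm1* was at 144, 112 and 195 CPM in outside cells, and its ratios of −1.55, −1.19 and −1.95 were also below those medians.

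The count of members past 2-fold lower was 2 of 9 in the wild-type library, where 39.3% of all genes were. It was 3 of 9 in the heterozygous library (with *Lrrtm2* at −1.03), where 20.8% of all genes were, and 3 of 9 in the homozygous library (with *Nlgn3* at −1.04), where 32.2% were. *Nlgn3* was at 39.2, 35.4 and 38.0 CPM in outside cells, near 2-fold above typical cells in each library. *Nrxn2* was at 131, 120 and 131 CPM in outside cells, with ratios of −0.29, −0.30 and −0.54. Without the neuron-like clusters the mutant ratios of *Nrxn2* were 0.11 and 0.016. *Lrrtm1* had the highest ratio of the 9 genes in each library, at 0.27 (−0.24 to 0.77), −0.08 (−0.43 to 0.28) and −0.15 (−0.62 to 0.32).

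**Figure D3:**
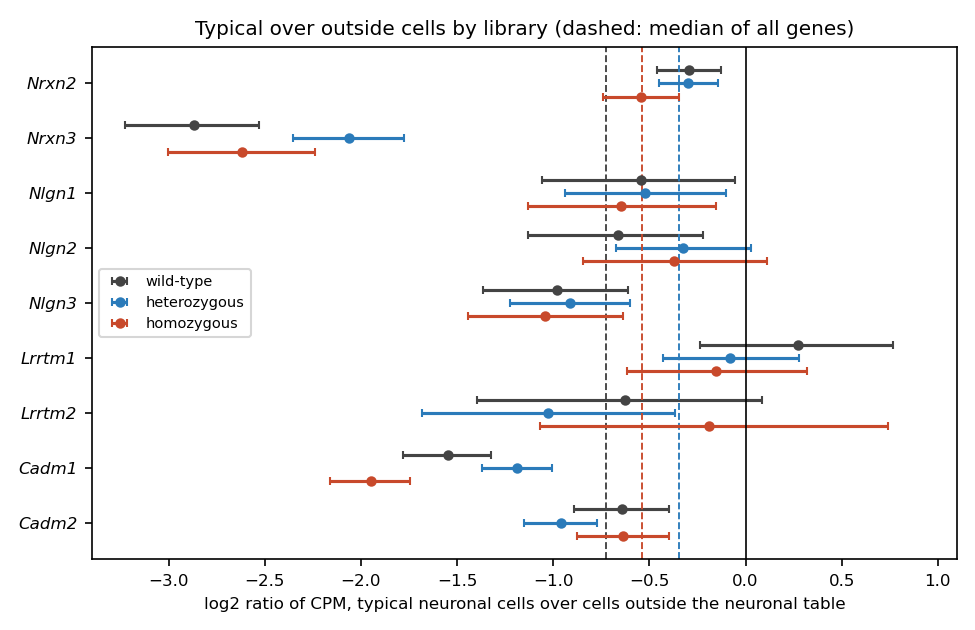
Log2 ratio of CPM, typical neuronal cells over outside cells (horizontal axis), for each gene (vertical axis) in the 3 libraries, with 95% counting intervals. Dashed lines give the median of all genes in each library (−0.73, −0.35 and −0.54), and *Nrxn3* (−2.87 to −2.06) and *Cadm1* (−1.95 to −1.19) lie left of them.

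Atypical neuronal cells are few (304, 107 and 462 cells), and the markers of striatal neurons, of which 7 of 8 are in the table, summed to 784, 721 and 892 CPM in them against 227, 170 and 208 CPM in typical cells. *Nrxn3* was higher in atypical cells, at 42.9 and 34.9 CPM in the wild-type and homozygous libraries, with typical over atypical log2 ratios of −1.09 (−1.73 to −0.42) and −1.41 (−2.06 to −0.71). *Cadm1* was at 99.1 and 87.2 CPM there, with ratios of −1.02 (−1.43 to −0.59) and −0.79 (−1.18 to −0.38). *Lrrtm1* went the other way, at 5.92 and 6.71 CPM from 4 and 5 UMIs, with a ratio of 1.26 (−0.18 to 3.19) in the wild-type and 1.57 (0.31 to 3.22) in the homozygous library. The heterozygous library has too few UMIs in atypical cells (216259) to place any of these. Past 2-fold lower in typical cells were 2 of 8 members in the wild-type library against 10.0% of all genes, and 1 of 9 in the homozygous library against 4.86%. Past 2-fold higher were 1 of 8 in the wild-type library (*Lrrtm1*) against 4.16% of all genes, and 2 of 9 in the homozygous library against 6.0% (511 of 8510 genes). These are *Lrrtm1* and *Nlgn1*, the latter at 1.13 (−0.15 to 2.78) from 89 and 5 UMIs.

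The 5453 outside cells were clustered without the 9 genes and without the list of their partners, which gave 20 clusters. Of these, 14 clusters with 4422 cells had 3 or more detected markers of a cell type and leading genes of that type, and they fall into 10 kinds. The libraries fill them unevenly, as cluster 2 has 588, 81 and 90 cells and cluster 1 has 176, 445 and 212 cells. Differences between libraries in all outside cells therefore hold a difference in composition. Levels by cluster are a description, with no test.

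**Figure D4:**
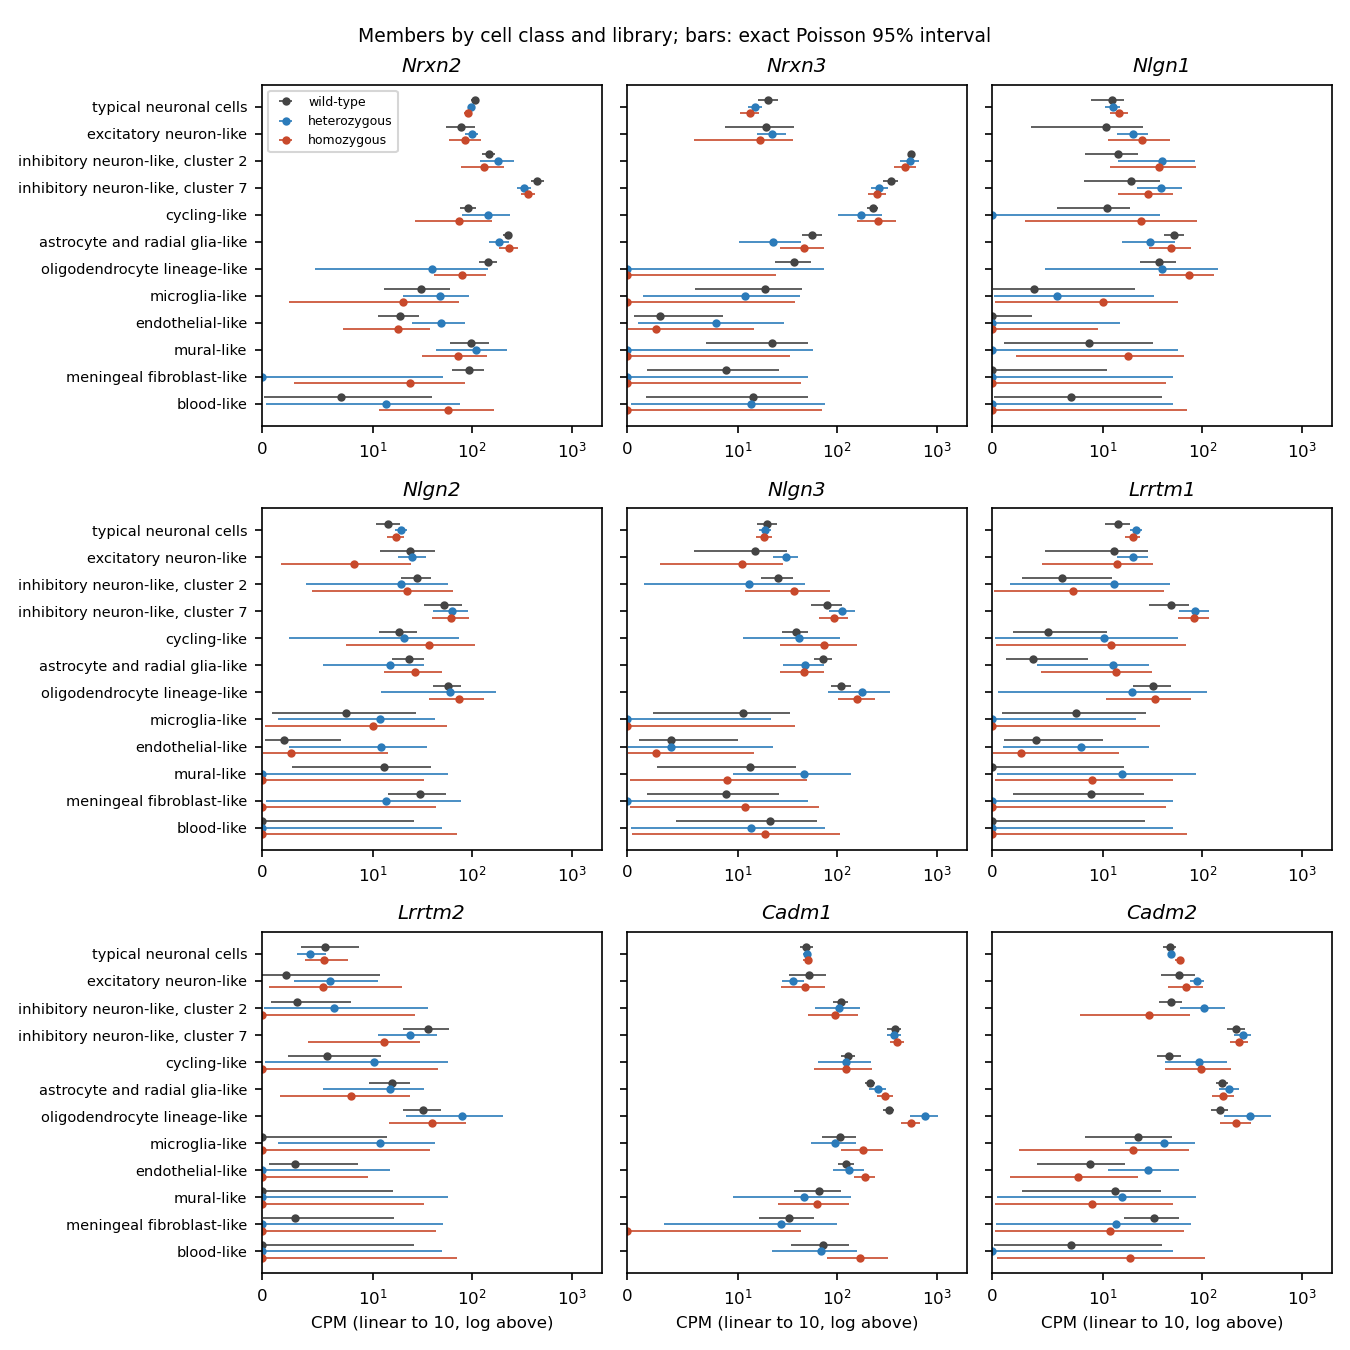
CPM of each gene (horizontal axis, linear to 10 and logarithmic above) in typical neuronal cells and in named kinds of outside cells (vertical axis) for the 3 libraries, with exact Poisson 95% intervals. *Nrxn3* is high in the inhibitory neuron-like clusters (253 to 554 CPM) and in cycling-like cells with their clusters pooled (175 to 256 CPM). *Cadm1* is high in oligodendrocyte lineage-like cells (327 to 752 CPM) and cluster 7 (373 to 398 CPM).

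*Nrxn3* was high in the inhibitory neuron-like clusters and in the pooled cells of the cycling-like clusters. Cluster 2, led by *Dlx6os1*, *Dlx1*, *Sp8* and *Igfbpl1*, genes of immature interneurons, had 554, 533 and 483 CPM from 702, 82 and 66 UMIs. *Nrxn3* was among the 10 genes with the largest fold in that cluster although it had no part in making it. Cluster 7, led by *Npy* and *Sst*, neuropeptides of a class of cortical interneurons, had 345, 265 and 253 CPM. The pooled cells of the cycling-like clusters had 226, 175 and 256 CPM. The larger of these clusters, of 351 cells, also carried 4 inhibitory markers. The smaller, of 39 cells, also carried 9 astrocyte and radial glia markers, and the pooled level need not hold for it. In each library the interval of cluster 2 lies above that of cluster 7. The order of cycling-like cells is not settled against cluster 7 in the mutant libraries, nor against cluster 2 in the homozygous library, where the intervals overlap. Astrocyte and radial glia-like cells had 55.9, 22.6 and 45.8 CPM. The excitatory neuron-like cluster, at 19.4, 22.1 and 16.6 CPM, did not differ from typical cells beyond the intervals. Endothelial-like cells had 3, 2 and 1 UMIs of *Nrxn3*, or 2.96, 8.04 and 2.59 CPM.

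*Nrxn2* had its highest levels in cluster 7, at 452, 332 and 367 CPM, with astrocyte and radial glia-like cells at 227, 188 and 235 CPM. Within the latter, the smaller cluster led by *Gfap* and *Aqp4* had 366, 318 and 356 CPM from 68, 24 and 16 UMIs and the larger one 204, 158 and 218 CPM. The order of cluster 7 and the smaller cluster is not settled, since their intervals overlap in each library. Cluster 2 had 146, 182 and 132 CPM, and endothelial-like cells were low at 18.7, 48.2 and 18.2 CPM. Within cluster 7 the mutant libraries were lower than the wild-type library for both neurexins. For *Nrxn3* the log2 ratio was −0.45 (−0.83 to −0.07) for homozygous and −0.38 (−0.75 to −0.01) for heterozygous over wild-type, and for *Nrxn2* it was −0.30 (−0.63 to 0.02) and −0.45 (−0.77 to −0.12). This did not hold for all clusters. In cluster 2 the *Nrxn3* ratios were −0.20 (−0.59 to 0.17) and −0.055 (−0.40 to 0.28), and those of *Nrxn2* −0.15 (−0.94 to 0.55) and 0.32 (−0.31 to 0.90). For heterozygous over wild-type, the excitatory neuron-like cluster had 0.35 (−0.18 to 0.92) for *Nrxn2* and 0.19 (−0.89 to 1.43) for *Nrxn3*, and the endothelial-like cluster had 1.36 (0.19 to 2.48) for *Nrxn2* from 12 and 19 UMIs. In cluster 3 the heterozygous *Nrxn3* ratio was −1.35 (−2.73 to −0.23) from 7 and 64 UMIs.

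The neuroligins were spread over several kinds of cells. *Nlgn1* was at 52.2, 30.1 and 48.5 CPM in astrocyte and radial glia-like cells (70, 12 and 18 UMIs) and at 36.5, 39.6 and 73.0 CPM in oligodendrocyte lineage-like cells (25, 2 and 11 UMIs), whose intervals overlap. It had 0 UMIs in endothelial-like cells in each library, where 3 UMIs, the limit used for a count of 0, would be 2.96, 12.1 and 7.78 CPM and the exact Poisson upper bounds are 3.64, 14.8 and 9.57 CPM. *Nlgn2* was at 57.0, 59.4 and 73.0 CPM in oligodendrocyte lineage-like cells and at 52.6, 62.1 and 62.0 CPM in cluster 7, with no difference beyond the intervals. *Nlgn3* was highest in oligodendrocyte lineage-like cells, at 110, 178 and 159 CPM from 75, 9 and 24 UMIs, and was at 79.0, 112 and 92.9 CPM in cluster 7, with intervals that overlap in each library. Astrocyte and radial glia-like cells were at 72.3, 47.6 and 45.8 CPM, below cluster 7 beyond the intervals in the heterozygous library only.

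*Lrrtm1* and *Lrrtm2* were low in most kinds. Among the named clusters *Lrrtm1* was highest in cluster 7, at 47.9, 83.6 and 82.6 CPM from 20, 35 and 32 UMIs, with log2 ratios of 0.81 (−0.03 to 1.68) for heterozygous and 0.79 (−0.06 to 1.67) for homozygous over wild-type. Oligodendrocyte lineage-like cells were at 32.2, 19.8 and 33.2 CPM from 22, 1 and 5 UMIs. Their order against cluster 7 is not settled, since the intervals overlap in each library. In cluster 2, the immature inhibitory neuron-like cells, *Lrrtm1* had only 8, 2 and 1 UMIs (6.31, 13.0 and 7.31 CPM). *Lrrtm2* had 22, 4 and 6 UMIs in oligodendrocyte lineage-like cells (32.2, 79.2 and 39.8 CPM) and 15, 10 and 5 in cluster 7 (35.9, 23.9 and 12.9 CPM).

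*Cadm1* was not restricted to neurons. It was at 327, 752 and 544 CPM in oligodendrocyte lineage-like cells (224, 38 and 82 UMIs) and at 376, 373 and 398 CPM in cluster 7. Oligodendrocyte lineage-like cells were above cluster 7 in the heterozygous library, and the intervals overlap in the wild-type and homozygous libraries. The kind pools clusters 9 and 15, with 157 and 50 wild-type, 6 and 6 heterozygous and 24 and 24 homozygous cells, so that its values by library also hold this difference in makeup. Astrocyte and radial glia-like cells had 213, 256 and 302 CPM, endothelial-like cells 122, 133 and 189 CPM and microglia-like cells 106, 94.3 and 183 CPM, all above the 49.0, 49.3 and 50.4 CPM of typical neuronal cells. Unlike in typical cells, *Cadm1* differed between the libraries in all outside cells, with log2 ratios of 0.44 (0.29 to 0.59) for homozygous and −0.35 (−0.51 to −0.20) for heterozygous over wild-type. Within single clusters the homozygous ratio was 0.56 (0.23 to 0.89) in cluster 3, the larger astrocyte and radial glia-like cluster, and 0.63 (0.19 to 1.06) in the endothelial-like cluster. The heterozygous ratios there were 0.16 (−0.22 to 0.53) and 0.12 (−0.48 to 0.68), and in cluster 7 the ratios were 0.08 (−0.25 to 0.41) and −0.012 (−0.34 to 0.32). *Cadm2* was low in endothelial-like cells (8.87, 28.1 and 7.78 CPM) and high in oligodendrocyte lineage-like cells (149, 297 and 219 CPM from 102, 15 and 33 UMIs), in cluster 7 (218, 253 and 235 CPM) and in astrocyte and radial glia-like cells (157, 186 and 162 CPM). The order of oligodendrocyte lineage-like cells and cluster 7 is not settled, since their intervals overlap in each library. The heterozygous *Cadm2* ratio was 0.61 (0.005 to 1.26) in the excitatory neuron-like cluster, 1.11 (0.22 to 1.92) in cluster 2 and 1.66 (0.004 to 3.26) in the endothelial-like cluster, the last from 7 and 9 UMIs. It was 0.22 (−0.22 to 0.63) in cluster 3 and 0.22 (−0.20 to 0.64) in cluster 7. The homozygous *Cadm2* ratios of these clusters had intervals that hold 0.

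Likeness of pattern was measured as Pearson's r of log2(CPM + 10) over 40 points, each a class or cluster in 1 library with at least 100000 UMIs, among 7787 genes. It was computed for the members that averaged 20 CPM or more in typical cells, and as the points share libraries and cells of a type it is a description. The 3 genes most like *Nrxn2* were *Atp1b1* (r = 0.88), a sodium pump subunit, *Negr1* (0.87), another immunoglobulin adhesion gene of neurons, and *Gabbr1* (0.86), a GABA-B receptor subunit. Those most like *Cadm2* were *Dlgap1* (0.87), a scaffold gene of the postsynaptic density, and the protocadherins *Pcdh17* (0.86) and *Pcdh7* (0.85). Those most like *Cadm1* were *Fam3c* (0.85), *Utp18* (0.78) and *Fam13c* (0.78). Between members, r was 0.72 for *Cadm1* and *Cadm2*, 0.68 for *Nrxn2* and *Cadm2* and 0.36 for *Nrxn2* and *Cadm1*.

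The list of 70 further genes of this system holds other presynaptic and postsynaptic receptors, the other *Cadm* genes, secreted binders and intracellular partners. Of these, 68 are in the table and 19 averaged 20 CPM or more in typical cells. For homozygous over wild-type 2 of the 19 were past 0.32 higher and 0 lower, against 17.2% higher and 8.50% lower among the 4261 genes at that level, with a median log2 ratio of −0.06 over the 19 and 0.08 over all. For heterozygous over wild-type it was 2 higher and 2 lower, against 17.1% and 9.50%, with medians of −0.03 and 0.06. By role, the intracellular partners hold both of the higher genes in each comparison (2 of 11) and 1 of the lower genes in the heterozygous comparison, *Shank2*, and the presynaptic receptors hold the other, *Ptprs*. None of the 10 secreted or linked binders in the table reached 20 CPM.

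*Gphn*, the gephyrin scaffold of inhibitory synapses that binds neuroligin-2, was at 17.2, 21.9 and 26.0 CPM, with log2 ratios of 0.60 (0.17 to 1.04) for homozygous and 0.35 (−0.06 to 0.78) for heterozygous over wild-type. *Lin7b* was at 88.0, 115 and 120 CPM, with ratios of 0.44 (0.25 to 0.64) and 0.38 (0.21 to 0.57), and *Cask* at 75.2, 88.8 and 92.0 CPM, with 0.29 (0.08 to 0.50) and 0.24 (0.04 to 0.44). Both encode parts of a scaffold complex that binds the tail of neurexins. *Cadm4* was at 64.3, 78.0 and 69.3 CPM. At the other end *Ptprs*, a presynaptic receptor phosphatase, was at 45.8, 30.2 and 38.7 CPM, with ratios of −0.24 (−0.53 to 0.05) and −0.60 (−0.87 to −0.32). *Clstn1* was at 37.6, 31.7 and 30.6 CPM, *Dlg2* at 39.8, 36.8 and 35.2 CPM and *Shank2*, a postsynaptic scaffold gene, at 27.2, 19.6 and 26.2 CPM, with ratios of −0.058 (−0.43 to 0.32) and −0.48 (−0.83 to −0.12).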

How the data were processed

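Sorted tdTomato+ cells of P5 mPFC were captured on the 10X Chromium Single Cell 3′ v2 platform, with 1 library per genotype. The authors aligned reads to mm10 and counted UMIs with Cell Ranger 2.0.1, and kept cells with at most 30% mitochondrial UMIs, 500 to 10000 UMIs and 500 to 3000 genes. The values used are the deposited raw counts of UMIs per gene and cell, for all barcodes and for filtered cells. The deposited cell annotation, from which the typical and atypical classes were taken, gives mitochondrial content as a fraction although its header names a percent. The deposited table of neuronal cells is on the natural log scale, as ln(1 + UMIs per 10000), and was used for its list of genes and cells. A scaled table was not used. The number of columns of samples outside the series was 0.

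Within each library, the UMIs of each gene in a class of cells were added up and divided by the UMIs of those cells (CPM). Intervals are exact Poisson 95% intervals for levels and exact conditional binomial (Clopper-Pearson) 95% intervals for log2 ratios, and cover counting error only. With 1 library per genotype no test was made, and a gene was counted when past a log2 ratio of 0.32 between genotypes or 2-fold between classes. Background shares were taken over genes that averaged 20 CPM or more, and a minimum of 5 CPM, which takes in all 9 genes, was chosen after seeing the data. Empty droplets are barcodes with at least 100 and under 500 UMIs. Outside cells were clustered with Leiden (resolution 0.5, 20 principal components, 15 neighbors, 1500 variable genes), leaving out the 9 genes, the partner list and mitochondrial and ribosomal genes. No doublet caller was run, and the 5% deepest cells were left out as an alternative. The named genes are the 9 genes, *Tbr1*, the 4 highest and 4 lowest partners by mean log2 ratio over wild-type among those of at least 20 CPM, and the 3 genes most like each member of at least 20 CPM. The members and lists were chosen with earlier results of these data known. Alternatives were other denominators, TMM (edgeR 4.0.16) and median-of-ratios (DESeq2 1.42.0) factors in R 4.3.3, removal of the empty-droplet profile, thinning of each cell to 1000 UMIs and other sets of cells. The interval and ratio code was tested on simulated data. Python 3.11.15, numpy 2.4.6, pandas 2.3.3, scipy 1.17.1, scanpy 1.11.5, leidenalg 0.10.2 and matplotlib 3.10.9 were used. Gene positions are from GENCODE on GRCm38, and upstream windows from RefSeq on GRCm38.p6, which held 5 of the 9 genes.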

Additional observations from a re-analysis of the deposited data

How the results depend on the processing

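Of 180 genotype ratios recomputed under 10 alternatives, 175 stayed within the counting interval, 3 moved past it and 2 that were past 0.32 turned direction. *Cadm2*, homozygous over wild-type, was −0.081 as mean raw UMIs per cell, a scale that moves all genes alike. On that scale the median of the genes that averaged 20 CPM or more was −0.34. *Lrrtm2*, heterozygous over wild-type, was 0.15 in cells thinned to 1000 UMIs. On raw UMIs the median of the 9 genes was −0.38 for homozygous over wild-type, and 5 genes were past a log2 ratio of 0.32, as without the 5% deepest cells (5). For heterozygous over wild-type 2 genes were past it with atypical cells added and 2 after thinning. The shares of all genes past it under these alternatives are not given here, so these counts have no background beside them. In the main CPM ratios, 47.2% (homozygous) and 47.6% (heterozygous) of genes with a UMI in each library were past it. There 3 and 4 of the 9 genes were. *Nrxn3* stayed below 0 (−1.03 to −0.58 homozygous, −0.65 to −0.28 heterozygous) and *Lrrtm1* above 0 (0.07 to 0.53 and 0.52 to 0.74) in all alternatives run.

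Of 162 ratios of typical over outside cells, 46 moved past the interval and 0 turned direction among those past 2-fold, while some smaller ratios did (*Lrrtm2*, homozygous library, 1.26 after thinning). Of the 46, 25 were on raw UMIs per cell, a scale that moves all genes of a library alike, and 13 were without the neuron-like clusters. On raw UMIs the median of the 9 genes was −1.18, −1.58 and −1.18 in the wild-type, heterozygous and homozygous libraries. Without neuron-like clusters, but with the cycling-like clusters kept, it was −0.43 (heterozygous) and −0.26 (homozygous), and *Nrxn3* was −1.66, −0.43 and −0.95. The causes were not tested. No paired analysis was possible because each genotype is 1 library and no test was made, and for the same reason no replicate could be left out. The depth limits *Lrrtm2* (21 to 45 UMIs per library) most.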

Other observations

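Cluster 17 of the outside cells (69 cells), unnamed because only 2 markers of a list were detected, was led by *Reln* and *Ndnf*. It held *Lrrtm1* at 62.7 CPM (39.8 to 94.1, 23 UMIs over the 3 libraries), *Nrxn2* at 120 CPM (87.2 to 161) and *Cadm1* at 13.6 CPM (4.43 to 31.8). *Cadm2* had 0 UMIs there, where 3 UMIs would be 8.18 CPM and the exact Poisson upper bound is 10.1 CPM. Cluster 12 (124 cells), led by *Dynlrb2* and *Tmem212*, held *Cadm1* at 156 CPM, *Cadm2* at 138 CPM and *Nrxn2* at 190 CPM. Cluster 13 (119 cells), led by *Pf4*, held *Cadm1* at 13.0 CPM and *Nrxn2* at 54.3 CPM. These values are a description, and most cells of these clusters come from the wild-type library.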
